A study of Rattus norvegicus with 9 samples.

Results

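The livers of rats treated with tormentic acid (TA) after carbon tetrachloride (CCl4) were compared with the livers of the CCl4 model rats, 3 against 3, so that 6 of the 9 libraries of the series enter the comparison. The libraries were taken by their group labels alone, and 12781 of the 16948 genes listed had enough counts to be tested. The rats were male Sprague-Dawley animals, whose age is not given in the sources used here. The model rats had received CCl4 by stomach at 2 ml/kg, as a 50% solution in oil, 2 times a week over 9 weeks. The TA rats had received the same course and then TA at 3.0 mg/kg over 6 weeks. The dose stands in the design text of the series, which also describes these TA livers by a low TA concentration in their homogenate, while the labels of the TA libraries carry no dose. What the model rats were given during those 6 weeks is not stated. All animals were fasted for 12 h before the livers were taken. The 3 livers of the normal control group, given saline, serve here only as a background level. The labels number the libraries of a group from 1 to 3 without saying that each is 1 animal; they are called rats here, and the p-values measure only the spread between these samples.

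CCl4 is turned into a radical by cytochrome P450 in the hepatocytes around the central vein, and repeated doses kill these cells. Stellate cells then turn into myofibroblasts that lay down collagen, macrophages and neutrophils enter the tissue, surviving cells divide, and small bile duct cells spread into the parenchyma in what is called the ductular reaction. Fibrosis of this kind can regress once the injury ends. TA is a triterpenoid from the herb Potentilla chinensis. All values are from bulk liver RNA, in which fewer cells of a type and less RNA per cell cannot be told apart.

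Between 13156735 and 14629664 reads were counted on genes per liver. The first model rat, Model 1, stood apart from the other 5 livers. Its 50 most abundant genes took 27.9% of its counts, against 40.4% to 45.2% in the others, and 10 genes that define liver, albumin among them, summed to 46400 CPM (read counts scaled to a common library size) in Model 1 and to between 129400 and 226800 CPM in the other 5. None of these 10 genes, which were all detected in every liver, was called between the groups. On the first principal component, which held 59.6% of the variance, Model 1 lay at -113.8, Model 2 at -29.4, Model 3 at 9.61 and the TA rats at 30.5, 55.3 and 47.8. Model 3 was nearer to TA 1 (0.637 log2 units per gene) than to Model 2 (0.705). CPM are given here after scaling by TMM, whose factor was 1.546 for Model 1 and between 0.823 (TA 2) and 1.063 (Model 2) for the others. The CPM of Model 1 are therefore lower than its library total alone would give.

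A gene was called, by the thresholds of the study's methods, where its unadjusted p was under 0.05 and its log2 fold change was above 1 or below -1, which held for 1571 genes, 12.3% of those tested. Of these, 270 were higher in the TA rats (2.11%) and 1301 were lower (10.2%). In edgeR's quasi-likelihood test 0 genes reached an adjusted p of 0.05, the smallest being 0.230, while 1999 genes had an unadjusted p under 0.05. DESeq2 gave 526 genes with an adjusted p under 0.05, 64 higher and 462 lower, and limma voom with sample quality weights gave 169. "Called", "higher" and "lower" below refer to the unadjusted thresholds. The numbers called in each gene list below are to be read beside the shares of all genes given in this paragraph. Without Model 1, 792 of 12911 genes were called (6.13%), 152 higher (1.18%) and 640 lower (4.96%). Of the 1571 genes, 681 were called in the same direction without Model 1, 118 higher and 563 lower, and 492 were called in each of the 6 fits that left out 1 rat. Without Model 3, 2792 genes were called, and without TA 2 973. With library totals in place of TMM the median log2 fold change of all genes moved from -0.00 to -0.48, and 96.4% of the calls were then lower against 82.8% with TMM.

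**Figure D1:**
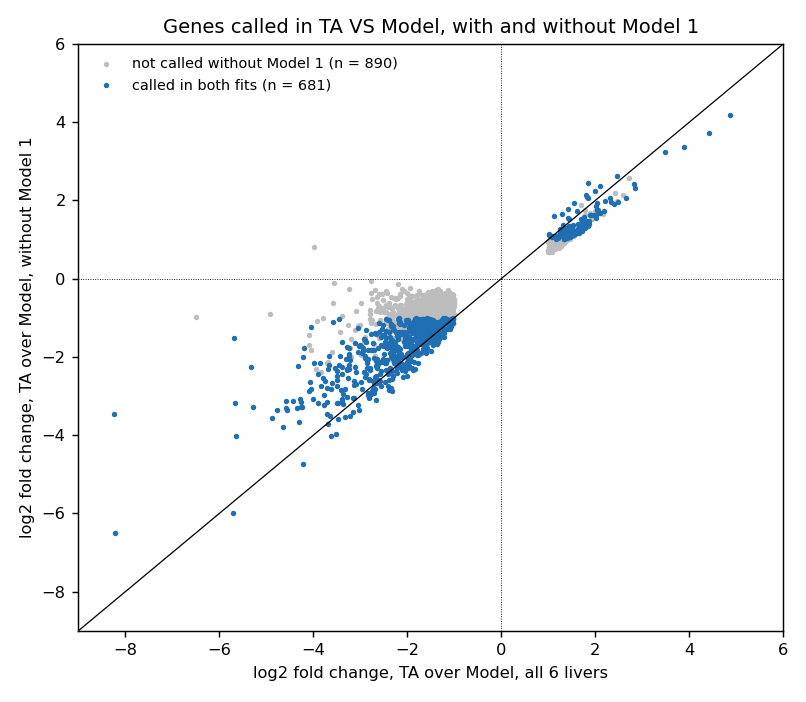
Log2 fold change of the 1571 called genes in the fit with all 6 livers (x axis) and in the fit without Model 1 (y axis), TA over Model; each point is 1 gene, and the diagonal marks equal values. The 681 genes called in both fits are blue and the other 890 grey, and most genes lower in the TA rats lie above the diagonal, nearer to 0 without Model 1 (median -1.75 with it and -1.09 without it).

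The 12 lower genes with the smallest p, among those expressed at a mean log2 CPM of at least 3 with groups that did not overlap and called without Model 1 too, included Rap1gap, Gstm3, Cldn4, Sctr, Epcam, Dcdc2, Adgrg1, Cd24, Bicc1, Ddr1 and Sorcs2. Many of them are known from the epithelium of bile ducts. The secretin receptor Sctr, by which bile duct cells take up the signal to secrete bicarbonate, stood at 26.6, 28.8 and 17.6 CPM in Model 1 to 3 and at 7.02, 4.52 and 3.74 CPM in TA 1 to 3, a log2 fold change of -2.25 (adjusted p = 0.230, standard error 0.34). The Rap1 inhibitor Rap1gap had the lowest p of the 12: it stood at 19.6, 26.3 and 18.6 CPM in the model rats against 6.08, 4.34 and 4.39 CPM in the TA rats, a log2 fold change of -2.12 (adjusted p = 0.230, standard error 0.29). Each of the 12 was called in all 6 fits that left out 1 rat, and their log2 fold changes ran from -2.98 to -1.53. The call without Model 1 and the lack of overlap are part of the rule that picked them. These calls are therefore no independent support.

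Genes of the bile duct epithelium were lower in the TA rats whether or not Model 1 was counted. Of 22 tested genes of cholangiocytes and the ductular reaction, 14 were lower in the TA rats and 1 was higher, with a median log2 fold change of -1.73 where all genes had a median of -0.00. Without Model 1, 13 were lower, at a median of -1.55. When any 1 rat was left out, between 13 and 16 of the 22 were called, and 13 of the 14 lower genes were called in all 6 of these fits.

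Epcam, an adhesion protein of bile duct cells that mature hepatocytes lack, stood at 85.1, 105 and 58.7 CPM in the model rats and at 25.8, 26.96 and 28.5 CPM in the TA rats, and the normal livers had 22.03, 14.97 and 17.7 CPM. The means were 82.9 ± 23.1 and 27.1 ± 1.34 CPM (SD, n = 3), a log2 fold change of -1.61 with an edgeR adjusted p of 0.230. The TA rats lay close together and below each model rat, and all 3 lay above the normal livers. The claudins, which seal the junctions between epithelial cells, differed by more: Cldn4 was at 21.9, 13.4 and 11.3 CPM in the model rats and 2.65, 1.11 and 2.12 CPM in the TA rats, and Cldn6 at 14.8, 11.2 and 7.16 and 0.935, 0.646 and 1.38 CPM, log2 fold changes of -2.98 and -3.47. Cldn6 had the lowest p of the list (adjusted p = 0.230, standard error 0.46).

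Sox9, the transcription factor that marks duct cells and progenitors, stood at 8.37, 7.30 and 5.39 CPM in the model rats and at 1.40, 2.22 and 2.12 CPM in the TA rats, with a log2 fold change of -1.88. Cftr, the chloride channel through which ducts secrete fluid, was at 12.7, 24.98 and 14.2 CPM in the model rats and 5.22, 1.66 and 2.44 CPM in the TA rats. The groups did not overlap for either gene, and Cftr was highest in Model 2, not in Model 1. The duct keratin Krt19 followed at 29.1, 12.5 and 9.54 CPM against 4.68, 1.39 and 4.55 CPM. Bicc1, an RNA-binding protein of duct and kidney epithelium, was at 55.4, 39.9 and 35.8 CPM against 16.9, 12 and 16.4 CPM and at 4.99, 2.74 and 3.30 CPM in the normal livers, so that the TA livers stood between both other groups. The 1 member that was higher in the TA rats, Onecut1, is also a hepatocyte factor: it stood at 2.07, 5.30 and 5.31 CPM in the model rats against 18.1, 17.8 and 3.42 CPM, with overlapping groups, and without Model 1 it was not called.

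**Figure D2:**
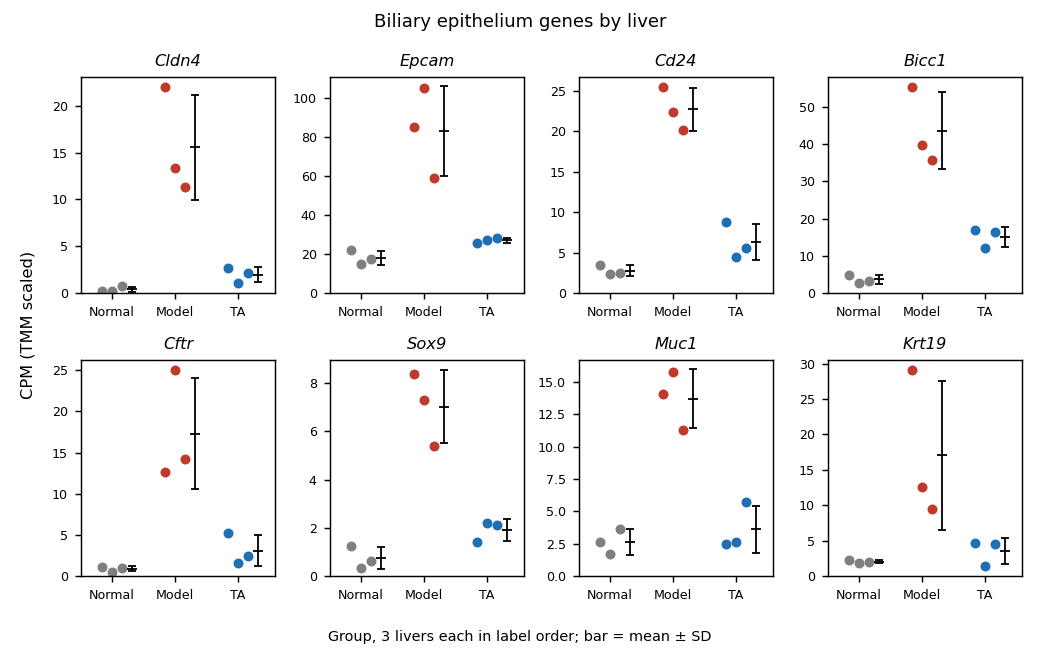
CPM of 8 biliary epithelium genes (y axes, each starting at 0) in the normal, model and TA livers (x axis); points are single livers in label order and bars are the mean ± SD of 3 livers. In all 8 genes each TA liver lies below each model liver, as for Epcam at 25.8 to 28.5 CPM in the TA rats and 58.7 to 105 CPM in the model rats. Cftr, Krt19 and Sox9 were chosen after their values were seen, so this is a description of the genes shown. In the whole list the groups did not overlap for 16 of 22 tested genes, all lower in the TA rats. Over all genes tested the groups did not overlap for 23.1%, in either direction.

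Genes of proliferation gave the lowest median of the 50 gene lists. Of 35 tested genes of the cell cycle and mitosis, 28 were lower in the TA rats and 0 were higher, with a median log2 fold change of -2.56. Without Model 1, 22 were lower, with a median of -1.69, and between 21 and 31 were called with each rat left out in turn. In 27 of the 28 genes the model rats stood in the order Model 1, Model 2, Model 3 from high to low, and in 7 of the 28 Model 3 lay within the range of the TA rats.

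Cenpf, a kinetochore protein made before mitosis, stood at 22.4, 7.44 and 4.08 CPM in the model rats and at 1.01, 0.554 and 0.163 CPM in the TA rats, a log2 fold change of -4.27 (adjusted p = 0.230, standard error 0.84). Ndc80, which ties the kinetochore to the spindle, was at 13.6, 6.01 and 2.08 CPM in the model rats and 0.312, 0.462 and 0.0813 CPM in the TA rats. The TA values of both genes rest on few reads, and in both genes all 3 TA rats lay below the normal livers (1.63, 1.12 and 1.65 CPM for Cenpf). The DNA replication gene Mcm5 stood at 31.1, 9.30 and 4.23 CPM in the model rats against 2.34, 1.02 and 1.38 CPM. The enzymes that make serine and one-carbon units, which dividing cells need for nucleotides, went the same way: all 4 lower genes among 27 tested genes of methionine and one-carbon metabolism were of this kind. Psat1 was at 12.2, 7.73 and 6.08 CPM in the model rats and at 1.64, 2.68 and 1.95 CPM in the TA rats, and Phgdh, the first enzyme of serine synthesis, at 20.6, 26.9 and 9.54 and 3.27, 5.54 and 1.95 CPM (log2 fold changes -2.05 and -2.41). The 3 higher genes of the same list belong to methionine, choline and folate metabolism of hepatocytes, among them Chdh at 29.9, 73.2 and 94.9 CPM in the model rats and 226, 191 and 116 CPM in the TA rats, and Ahcy. Of the 7 called genes of this list 6 were called without Model 1, and 4 genes were called without TA 1.

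The genes of scar matrix were lower in the TA rats, and most of these calls were lost without Model 1. Of 17 tested collagens 11 were lower, with a median log2 fold change of -2.15, but without Model 1 only Col8a2 and Col12a1 were, and the median was -0.47. Leaving out TA 2 or TA 3 also left 2, at medians of -2.02 and -1.97, and leaving out TA 1 left 7. Col12a1, a collagen that sits on the surface of fibrils, stood at 75.6, 20.8 and 9.24 CPM in the model rats and 6.55, 5.45 and 5.45 CPM in the TA rats, a log2 fold change of -2.60, or -1.36 without Model 1. Col8a2, a short-chain network collagen, was at 16.7, 10.8 and 13.2 CPM in the model rats and 6.63, 4.52 and 6.67 CPM in the TA rats (adjusted p = 0.246, standard error 0.31). In both genes the groups did not overlap and Model 2 and 3 were above each TA rat. The main fibril collagen Col1a1, in contrast, was at 4870, 252 and 264 CPM in the model rats and 192, 103 and 91.3 CPM in the TA rats, so that Model 1 held a level far above the other model rats, and its log2 fold change went from -3.80 to -0.9985 without it. The normal livers had 19.9, 11.9 and 7.97 CPM of Col1a1.

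Among 30 tested matrix glycoproteins and proteoglycans 15 were lower and 1 was higher (median -1.49), and without Model 1 Postn and Efemp2 alone were called (median -0.50). Without TA 2 and without TA 3 the calls numbered 7 and 8. Postn, which activated fibroblasts secrete, stood at 322, 4.58 and 3.54 CPM in the model rats and 0.702, 0.185 and 0.163 CPM in the TA rats, with 0.181, 0.211 and 0 CPM in the normal livers. All 3 model rats were above the TA rats, Model 1 by far the most, and the TA and normal values rest on few reads, so that no fold is given. The basement membrane gene Nid2 was at 65.8, 27.7 and 26.6 CPM against 15.04, 11.9 and 14.2 CPM, with no overlap. The 1 higher gene, Ecm1, a matrix protein that hepatocytes make, was at 64.4, 46.4 and 122 CPM in the model rats and 116, 214 and 203 CPM in the TA rats, with overlapping groups.

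Of 24 tested genes of matrix crosslinking and turnover 12 were lower (median -1.26), and 5 of these were lower without Model 1 (median -0.49), while 6 genes were called without TA 2 and 5 without TA 3. The 5 without Model 1 were Lox, Plod2, Loxl1, Mmp12 and Timp1. Lox, which oxidises lysine so that fibrils bind to each other, stood at 146, 51.5 and 38.8 CPM in the model rats and 20.5, 15.5 and 16.1 CPM in the TA rats, a log2 fold change of -2.18 (adjusted p = 0.237, standard error 0.50). The lysyl hydroxylase Plod2 was at 124, 33.6 and 25.1 CPM against 12, 9.42 and 10.98 CPM, and at 2.54, 1.12 and 2.47 CPM in the normal livers. The normal livers had more Lox than the TA rats, at 116, 95.1 and 28.3 CPM. Among 26 tested genes of stellate cells and myofibroblasts, 13 were lower (median -1.14), 5 were without Model 1 and 7 each without TA 2 and without TA 3. Thy1, a surface marker of portal fibroblasts that lymphocytes can also carry, was at 21.4, 7.44 and 2.31 CPM in the model rats and 0.935, 0.554 and 0.651 CPM in the TA rats. Pdgfb, the ligand that drives stellate cells to divide, stood at 13.9, 4.01 and 3.92 CPM against 1.40, 1.20 and 0.732 CPM. Both lay lower in every TA rat than in any model rat.

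Markers of the liver's surface lining were lower in the TA rats as well, though their sum was highest in Model 2 and not in Model 1. The mesothelial gene Msln was at 33.4, 85.8 and 22.8 CPM in the model rats and 10.1, 2.68 and 4.31 CPM in the TA rats, and Wt1 at 10.4, 2.65 and 3.77 and 1.56, 1.29 and 2.03 CPM, 2 lower genes among 3 tested of 8 mesothelium markers. Without Model 1, Msln alone was called, and Wt1 had a log2 fold change of -0.96. The 3 summed to between 27.2 and 90.1 CPM in the model rats, between 5.08 and 12.5 CPM in the TA rats and between 0.916 and 2.72 CPM in the normal livers. Smooth muscle and large vessel markers summed to 394 CPM in Model 1 and to between 177 and 252 CPM in the other 5 livers. Pancreas and skeletal muscle markers that could be tested stayed under 7 CPM in each liver. Their part in the matrix results was not tested.

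Among genes of recruited and scar-associated macrophages, 13 of 20 were lower (median -1.73), and 7 were without Model 1 (median -0.68), 6 without TA 2 and 7 without TA 3. Lpl, a lipase that foamy macrophages make, was at 572, 287 and 326 CPM in the model rats and 184, 73.4 and 115 CPM in the TA rats, and at 26.01, 11.2 and 18.96 CPM in the normal livers. The tetraspanin Cd9, which ducts also carry, stood at 87.5, 66.7 and 20.3 CPM against 10.7, 5.17 and 14.6 CPM. Both were called in all 6 fits that left out 1 rat. The resident Kupffer cells gave another picture: of 15 tested genes 1 was higher, 1 was lower and the median was -0.38, which turned to 0.40 without Model 1, where 3 were higher. Without Model 3, 6 were called. Clec4f, found on Kupffer cells alone in rodent liver, stood at 14.2, 49.2 and 125 CPM in the model rats and 328, 178 and 138 CPM in the TA rats, with 196, 178 and 159 CPM in the normal livers. Every TA rat was above every model rat (log2 fold change 1.77, adjusted p = 0.306, standard error 0.73), but it was called in only 2 of the 6 fits that left out 1 rat. Hmox1, the haem-degrading enzyme on the same list, was at 1195, 95.3 and 27.2 CPM in the model rats and 39.6, 29.3 and 18.3 CPM in the TA rats, with Model 3 within the range of the TA rats, and it was not called without Model 1.

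Neutrophil genes were lower both with and without Model 1. Of 12 tested genes 6 were lower (median -1.64), and 7 were without Model 1 (median -1.19), while all 12 had log2 fold changes below 0. Without Model 3 and without TA 2 there were 4 each. Mmp8, the collagenase of neutrophil granules, stood at 5.76, 5.01 and 4.77 CPM in the model rats and 2.34, 0.831 and 1.06 CPM in the TA rats. Ncf1, a subunit of the oxidase that makes superoxide, was at 70.7, 28.6 and 27.9 CPM against 15.7, 7.94 and 16.7 CPM. In both genes the groups did not overlap. The MHC class II genes, by which macrophages, dendritic cells and B cells present antigen, showed 0 calls among 8 tested genes (median -0.71), where Model 1 was the lowest model rat in all 8. Without it 6 of the 8 were lower, with a median of -1.06, and without TA 1 there were 2. Cd74, the invariant chain that accompanies class II, was at 356, 1058 and 1050 CPM in the model rats and 697, 414 and 441 CPM in the TA rats, so that Model 1 lay below all 3 TA rats. Of 22 tested lymphocyte genes 0 were called, with a median of -0.41, and Model 1 was the lowest model rat in 16 of the 22. Without Model 1 again 0 were called, with 19 below 0 and a median of -0.55.

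Of 31 tested chemokines and receptors 10 were lower (median -1.04), and 10 were without Model 1, 9 of them the same. Ackr3, a scavenging receptor of CXCL12, stood at 11.96, 15.1 and 16.7 CPM in the model rats and 4.21, 5.91 and 6.02 CPM in the TA rats, a log2 fold change of -1.44 (adjusted p = 0.230, standard error 0.30). Ccl2, which draws monocytes into tissue, was at 23.1, 3.51 and 4.54 CPM against 0.935, 0.554 and 0.895 CPM. Ackr3 was highest in Model 3 and Ccl2 in Model 1. Among 27 tested NF-kB components and targets 4 were lower, with a median of -0.20, where 10.2% of all genes tested were lower. Vcam1, an adhesion molecule for leukocytes, was at 31.98, 19.9 and 10.1 CPM in the model rats and 7.33, 6.83 and 7.65 CPM in the TA rats. The subunit Relb was at 17.7, 17.03 and 11.9 CPM against 5.22, 9.33 and 6.51 CPM. With each rat left out, 2 to 6 of the NF-kB list were called, 2 without Model 1 or TA 2 and 6 without Model 3. The share of all genes called without Model 1 was 6.13%. Of 29 interferon stimulated genes 1, Gbp2, was lower at 24.6, 20.1 and 16.7 CPM against 14.7, 8.59 and 5.69 CPM, and the median was 0.07, which turned to -0.35 with library totals, -0.09 without Model 1 and -0.36 without TA 1. Without Model 1 Gbp2 had a log2 fold change of -0.92 and 0 genes of this list were called.

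Of 28 tested endothelial genes 3 were higher and 4 lower, with a median of -0.28 that turned to 0.28 without Model 1, where 1 was higher and 3 were lower. Without Model 3, 14 were called, and without TA 1 there were 3. The 3 higher genes, Kdr, Ehd3 and Clec4g, are known from the lining of the sinusoids. Kdr, the main receptor of VEGF, stood at 29.7, 23.4 and 39.4 CPM in the model rats and 57.9, 51.8 and 76.1 CPM in the TA rats, and Ehd3 at 23.9, 33.3 and 40.02 and 81.5, 66.5 and 50.03 CPM. The groups did not overlap, and the log2 fold changes were 1.01 and 1.03, which lay below 1 without Model 1 (0.99 and 0.85). Among the lower genes were Jag1, a Notch ligand that portal cells and ducts also carry, at 33.7, 15.03 and 13.1 CPM in the model rats and 4.29, 5.72 and 9.44 CPM in the TA rats, and Cd34, a mark of capillary endothelium, at 19.04, 4.72 and 2.08 and 1.72, 0.831 and 1.22 CPM. These 2 were also lower without Model 1.

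**Figure D3:**
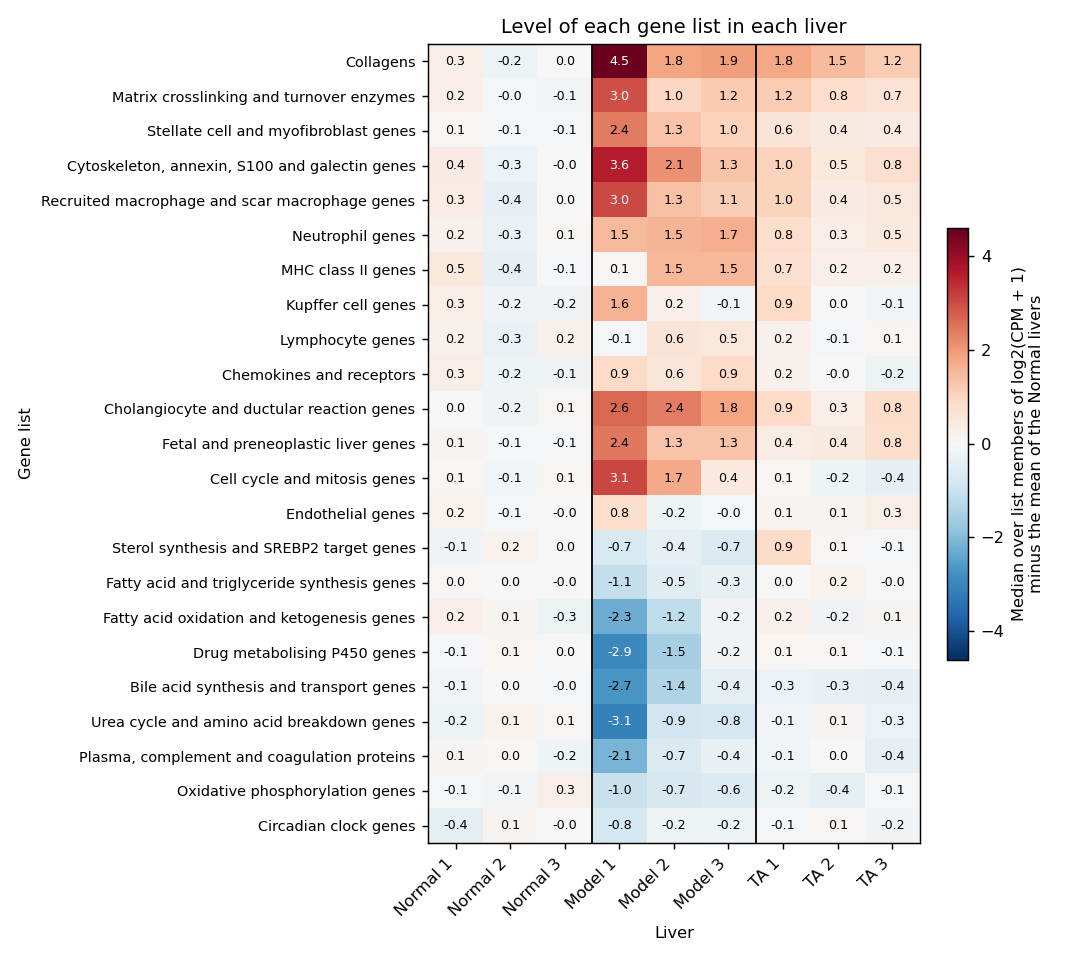
Median over the members of each gene list (rows) of log2(CPM + 1) minus the mean of the normal livers, in each of the 9 livers (columns); red is above and blue below the normal level. Model 1 has the extreme value in most rows, as for collagens at 4.52 against 1.80 and 1.92 in Model 2 and 3 and 1.17 to 1.78 in the TA livers, while cholangiocyte genes stand at 1.81 to 2.63 in all 3 model livers and 0.32 to 0.92 in the TA livers.

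Of 17 tested genes of fetal and preneoplastic liver 10 were lower (median -1.43), and 3 of these were without Model 1 (median -0.64), and 5 without TA 2. Dlk1, a surface protein of fetal liver cells that the normal adult liver hardly makes, had deposited counts of 87, 205 and 55 in Model 1 to 3, of 2, 2 and 1 in TA 1 to 3 and of 1, 1 and 0 in the normal livers. It was lower in all 6 fits that left out 1 rat. Tspan8 stood at 43.9, 30.9 and 13.8 CPM against 6.16, 4.52 and 8.95 CPM. Of 23 genes of the cytoskeleton and the annexin, S100 and galectin families, which most cells of an injured liver make more of, 17 were lower (median -1.92) and 11 of these were without Model 1 (median -1.06). The calcium-dependent membrane binder Anxa5 was at 239.9, 186 and 89.1 CPM in the model rats and 58.1, 35.6 and 42.5 CPM in the TA rats, and Cd44, a hyaluronan receptor, at 109, 44.9 and 35.9 and 17.2, 8.77 and 9.03 CPM.

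Among the genes that were higher in the TA rats, cholesterol synthesis was the list of the 50 with the most calls. This pathway is run by the transcription factor SREBP2, which is released from the endoplasmic reticulum when its sterol content is low and which acts together with NF-Y, a factor that binds CCAAT. Of 29 tested genes of the pathway and other SREBP2 targets 11 were higher and 0 were lower, with a median log2 fold change of 1.03. All 11 were higher without Model 1 as well (median 0.95). TA 1 was the highest TA rat in all 11, and without it 5 were called. With library totals 5 were called, at a median of 0.61.

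Hmgcs1, which makes the HMG-CoA at the head of the pathway, stood at 86.2, 116 and 249.6 CPM in the model rats and 773, 441 and 472 CPM in the TA rats, a log2 fold change of 1.90 (adjusted p = 0.250, standard error 0.50). Fdft1, squalene synthase, the first enzyme committed to sterols, was at 38.9, 48.9 and 52.7 CPM against 165, 81.4 and 108 CPM and at 71.8, 99.7 and 90.7 CPM in the normal livers. The groups did not overlap for either, and the TA rats lay within or above the range of the normal livers. Cyp51, which removes the methyl group of lanosterol, followed at 53.7, 80.3 and 57.3 CPM in the model rats and 252, 142 and 118 CPM in the TA rats. Fdps, which makes farnesyl diphosphate, was tight in the model rats at 70.7, 77.6 and 84.9 CPM, against 263, 128 and 159.8 CPM in the TA rats. For Msmo1 and Idi1 the difference lay mostly in TA 1: Msmo1 stood at 36.2, 35.9 and 21.1 CPM in the model rats and 195, 42.9 and 46.5 CPM in the TA rats. Hsd17b7, at 3.64, 5.44 and 4.08 CPM against 17.3, 11.8 and 5.21 CPM, was called although TA 3 lay below Model 2.

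**Figure D4:**
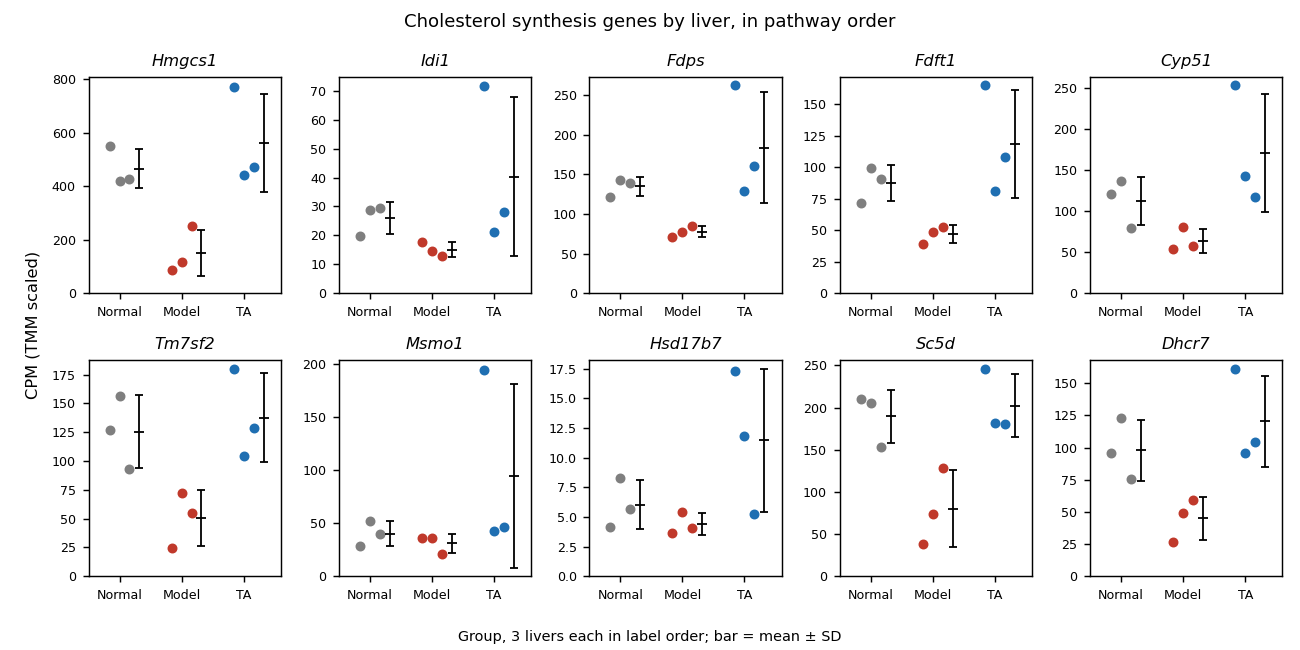
CPM of 10 cholesterol synthesis genes (y axes, each starting at 0) in the order of the pathway in the normal, model and TA livers (x axis); points are single livers in label order and bars are the mean ± SD of 3 livers. TA 1 is the highest of the 9 livers in each panel, and TA 2 and 3 lie lower, as for Fdps at 263 CPM in TA 1 and 128 and 160 CPM in TA 2 and 3.

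The promoters of these genes are shown because their letters can be set beside that regulation. Each line gives the 250 bases before the RefSeq start of the gene in build GRCr8, read 5′ to 3′ on the gene's own strand, with each CCAAT or its reverse complement ATTGG in capitals. Shown are the 5 higher sterol genes and, for comparison, the 2 lower cell cycle genes that have the smallest p among those with 1 listed start and at least 2 such matches; they were picked for these matches. The windows are chr2:53382054-53382303, plus strand (Hmgcs1), chr2:176804817-176805066, minus strand (Fdps), chr17:66547525-66547774, minus strand (Idi1), chr13:84722755-84723004, minus strand (Hsd17b7), chr16:29746863-29747112, plus strand (Msmo1), chr13:103760887-103761136, minus strand (Cenpf) and chr19:13488563-13488812, plus strand (Mcm5).
Hmgcs1: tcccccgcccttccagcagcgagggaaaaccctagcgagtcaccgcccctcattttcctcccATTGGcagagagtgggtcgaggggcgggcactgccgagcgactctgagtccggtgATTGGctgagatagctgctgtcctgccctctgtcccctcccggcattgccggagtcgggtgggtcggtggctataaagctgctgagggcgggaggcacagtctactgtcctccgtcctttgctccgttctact
Fdps: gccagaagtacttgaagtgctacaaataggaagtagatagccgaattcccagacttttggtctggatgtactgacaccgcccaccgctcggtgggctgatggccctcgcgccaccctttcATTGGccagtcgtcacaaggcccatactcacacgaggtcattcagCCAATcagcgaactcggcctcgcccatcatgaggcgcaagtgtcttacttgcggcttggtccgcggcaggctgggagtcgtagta
Idi1: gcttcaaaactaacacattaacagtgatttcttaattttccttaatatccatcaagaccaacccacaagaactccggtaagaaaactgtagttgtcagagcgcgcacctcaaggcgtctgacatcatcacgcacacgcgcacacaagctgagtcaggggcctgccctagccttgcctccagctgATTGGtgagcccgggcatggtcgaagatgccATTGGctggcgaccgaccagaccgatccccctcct
Hsd17b7: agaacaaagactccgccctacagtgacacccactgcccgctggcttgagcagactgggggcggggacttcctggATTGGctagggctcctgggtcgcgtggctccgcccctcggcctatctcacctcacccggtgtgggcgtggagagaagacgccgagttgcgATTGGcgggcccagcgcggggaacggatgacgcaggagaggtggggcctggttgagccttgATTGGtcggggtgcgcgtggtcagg
Msmo1: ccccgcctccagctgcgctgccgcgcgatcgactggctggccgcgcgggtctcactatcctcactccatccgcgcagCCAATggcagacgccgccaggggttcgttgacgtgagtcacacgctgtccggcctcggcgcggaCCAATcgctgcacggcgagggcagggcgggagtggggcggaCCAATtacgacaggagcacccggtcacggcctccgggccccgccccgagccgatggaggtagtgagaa
Cenpf: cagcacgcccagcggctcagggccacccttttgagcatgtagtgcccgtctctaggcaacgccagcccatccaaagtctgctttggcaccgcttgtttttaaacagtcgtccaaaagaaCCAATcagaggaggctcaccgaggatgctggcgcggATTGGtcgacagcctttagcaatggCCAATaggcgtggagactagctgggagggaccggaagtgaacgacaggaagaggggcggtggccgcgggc
Mcm5: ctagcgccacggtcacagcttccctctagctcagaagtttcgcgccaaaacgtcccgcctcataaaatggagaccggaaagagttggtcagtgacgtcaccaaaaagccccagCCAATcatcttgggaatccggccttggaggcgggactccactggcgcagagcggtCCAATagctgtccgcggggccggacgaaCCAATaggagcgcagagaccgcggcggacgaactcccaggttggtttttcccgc

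Of the 11 higher sterol genes 9 had a RefSeq promoter in the table used, and 7 of these 9 held at least 1 match to CCAAT on either strand, 5 of them 2 or more. Of the 28 lower cell cycle genes 20 had a promoter, of which 15 held a match and 11 held 2 or more. Members that were not called held them too: over all tested members with a promoter, 17 of 21 sterol genes and 19 of 26 cell cycle genes held a match. Over all 9575 tested genes with a promoter the shares were 35.8% with a match and 12.4% with 2 or more, and over all 27457 genes with a RefSeq promoter they were 34.3% and 9.77%. The sterol and the cell cycle genes were thus on opposite sides of the comparison with alike shares of these letters, and over all called genes the share with a match was 39.1% among the higher and 35.2% among the lower. The letters TCACNCCAC of the sterol response element were in none of the 9 sterol promoters and in 1.02% of those of all tested genes. The other letters searched, CACGTG, TTATGTAA and TGACTCA, were in 1, 0 and 2 of the 9 sterol promoters, in 1, 0 and 0 of the 20 cell cycle promoters and in 8.0%, 0.439% and 3.13% of those of all tested genes. These matches describe the letters of the window only.

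Fatty acid and triglyceride synthesis gave 6 higher and 4 lower genes among 35 (median 0.60), with 5 called without Model 1 or TA 2 and 17 without Model 3. Fads1, a desaturase that makes polyunsaturated fatty acids, stood at 48.6, 61.4 and 70.3 CPM in the model rats and 119, 170.3 and 124 CPM in the TA rats (adjusted p = 0.246, standard error 0.28). Acaca, acetyl-CoA carboxylase, which starts fatty acid synthesis, was at 6.74, 6.37 and 7.24 CPM against 12.2, 15.6 and 15.3 CPM. Its model rats lay close together and all 3 TA rats above them, with and without Model 1. Among the lower genes was Fabp4, a fatty acid carrier of adipocytes and macrophages, at 448, 67.2 and 8.54 CPM in the model rats and 11.7, 7.76 and 8.46 CPM in the TA rats, where Model 3 lay within the TA range. Of 41 tested genes of glycerophospholipid head groups and remodelling 2 were higher and 5 lower (median 0.31, or -0.17 with library totals). Over all genes tested the shares were 2.11% higher and 10.2% lower. In this list 4 were called without Model 1, 2 without TA 1, 1 without TA 2 and 19 without Model 3. Etnppl, which breaks down phosphoethanolamine, was at 4.87, 74.2 and 55.5 CPM against 302, 216 and 445 CPM, and Cds1, which makes CDP-diacylglycerol, at 2.66, 1.93 and 4.31 against 6.31, 8.49 and 5.04 CPM. Both were higher without Model 1 too.

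Of the 12 higher genes with the smallest p under the same rule as for the lower ones, Ppp1r3b led. It encodes the subunit that brings a phosphatase to glycogen in liver and so favours glycogen synthesis. It stood at 15.6, 18.2 and 37.2 CPM in the model rats, 96.9, 127 and 105 CPM in the TA rats and 77.3, 164 and 76.7 CPM in the normal livers, a log2 fold change of 2.21 (adjusted p = 0.230, standard error 0.38). Each TA rat lay above each model rat, which the rule requires. Pdp2, a phosphatase that activates pyruvate dehydrogenase, was at 3.30, 5.01 and 5.31 CPM against 10.8, 21.1 and 14.3 CPM. Tsku, a protein that the liver secretes, stood at 40.5, 94.4 and 72.7 CPM in the model rats and 536, 266 and 236 CPM in the TA rats, and Slc13a3, a carrier of dicarboxylates, at 11.7, 17.1 and 25.9 and 79.7, 52.5 and 47.99 CPM. The others were Syne2, Rnd2, Trib3, Cish, Fads1, Tmem14c, Acaca and Fdft1, and the log2 fold changes of the 12 ran from 1.08 to 2.47. Each of these was called in every fit that left out 1 rat, of which the fit without Model 1 is part of the rule.

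Genes of hepatocyte function were above 0 in the TA rats almost throughout, and most were not called. Of all genes tested 2.11% were called higher, and 1.18% without Model 1. Of 40 tested genes of fatty acid oxidation and ketogenesis all 40 had log2 fold changes above 0 (median 1.03), and 4 were called. Without Model 1, Model 2 or TA 3 there was 1 each, at a median of 0.65 without Model 1, and without Model 3 there were 35. The pattern was alike for 29 drug metabolising P450 genes, of which 28 were above 0 (median 1.34), 4 were higher and 1 was lower, with 6 higher and 1 lower without Model 1 (median 0.90), 2 called without Model 2 or TA 1 and 21 without Model 3. It was alike, too, for 39 genes of the urea cycle and amino acid breakdown, of which 38 were above 0 (median 1.08) and 7 were higher, with 7 higher without Model 1 too (median 0.69), 3 called without TA 2 or TA 3 and 19 without Model 3. Model 3 lay within the range of the TA rats in 25 of the 36 uncalled genes of fatty acid oxidation, 16 of the 24 uncalled P450 genes and 11 of the 32 uncalled genes of the urea cycle list. The summed liver markers given above, lowest in Model 1, moved with these lists, and their part in the result was not tested. With library totals these 3 medians were 0.72, 1.05 and 0.76.

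Cyp2d4, a P450 of drug oxidation, stood at 8.66, 14.8 and 33.7 CPM in the model rats and 49.2, 82.6 and 50.3 CPM in the TA rats, a log2 fold change of 1.67 (adjusted p = 0.258, standard error 0.50). Cyp4a8, a fatty acid hydroxylase, was at 4.58, 4.44 and 27.1 CPM against 85.5, 64.6 and 32.3 CPM. The TA rats were above each model rat in both genes, with Model 3 nearest to them. Gpt, the alanine aminotransferase whose activity in serum is read as liver injury, had 15.7, 60.9 and 192 CPM of its transcript in the model rats and 348, 530.0 and 547 CPM in the TA rats, and 358, 599.9 and 667 CPM in the normal livers. Hal, histidine ammonia-lyase, was at 18.6, 80.5 and 108 CPM against 141, 265 and 328 CPM. Cidec, a lipid droplet protein on the fatty acid list, was at 16.9, 37.1 and 53.95 CPM against 104, 109.8 and 72.3 CPM, and Crat, carnitine acetyltransferase, at 46.5, 37.2 and 98.4 CPM against 111, 119.7 and 171 CPM. Of these, Crat was not called without Model 1.

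Bile acid synthesis and transport had 4 higher genes and 1 lower gene among 28 (median 0.97). Without Model 1 there were 2 higher genes and 1 lower gene (median 0.50). Without Model 3, 20 were called, and without Model 2 or any 1 TA rat there was 1. Cyp8b1, which makes the cholic acid branch of the bile acids, stood at 75.9, 292 and 529.9 CPM in the model rats and 2242, 1182 and 672 CPM in the TA rats, and the sinusoidal exporter Abcc3, which takes bile acids back to blood in cholestasis, was lower at 17.5, 20.9 and 8.85 CPM against 9.74, 4.06 and 3.58 CPM, with overlapping groups. Cyp27a1 was at 76.6, 232 and 295 CPM in the model rats and 577, 445 and 456 CPM in the TA rats, and was called in only 1 of the 6 fits that left out 1 rat, not in the one without Model 1. Among 25 hepatocyte transcription factors 5 were higher and 0 lower (median 0.96), with 2 called without TA 2, 3 without Model 1, Model 2 or TA 1 and 11 without Model 3. Cebpa, a factor that holds hepatocytes in their mature state, was at 127, 161 and 213 CPM against 409.5, 487 and 301 CPM, called in all 6 fits that left out 1 rat, and Rxra at 22.04, 15.2 and 40.95 CPM against 84.97, 93.3 and 34.8 CPM, with overlapping groups.

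For oxidative phosphorylation all 43 tested genes were above 0, with a median of 0.58, 24 of the 43 had TA rats above each model rat where 23.1% of all genes had groups that did not overlap in either direction, and 0 were called. Without Model 1 the median was 0.45 and with library totals 0.14. Of 42 genes of plasma, complement and coagulation proteins 40 were above 0 (median 0.79) and 1, Pros1, was higher at 85.1, 131 and 219.5 CPM in the model rats and 348, 311 and 265 CPM in the TA rats. Without Model 1 the median of this list was 0.43 and 0 genes were called, with Pros1 at a log2 fold change of 0.82. Of 26 apolipoprotein genes and 25 acute phase genes 0 were called, at medians of 0.98 and 0.59, or 0.62 and 0.25 without Model 1. Without Model 3 there were 9, 11 and 5 calls in these 3 lists.

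**Figure D5:**
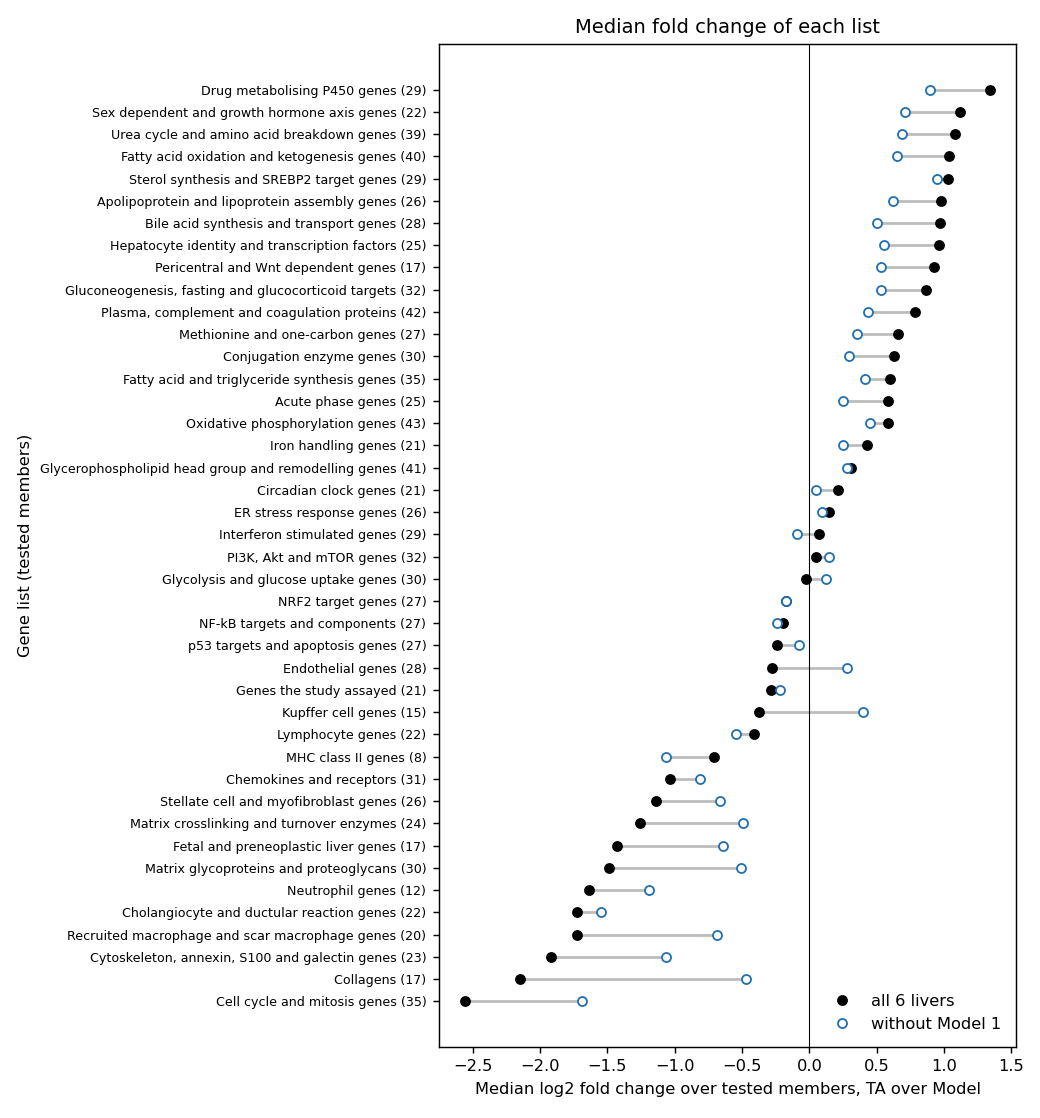
Median log2 fold change, TA over Model, of each gene list (rows, with the number of tested members), in the fit with all 6 livers (filled) and without Model 1 (open). Collagens move from -2.15 to -0.47 while cholangiocyte genes stay at -1.73 and -1.55 and sterol genes at 1.03 and 0.95.

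Some single genes of hormone and stress responses stood out within lists that were mixed. Cish, which growth hormone and cytokines induce through STAT5, was at 5.66, 4.37 and 4.16 CPM in the model rats and 22.3, 47.1 and 9.44 CPM in the TA rats, and at 3.35, 1.97 and 2.56 CPM in the normal livers. The TA rats thus lay above both other groups. Of 22 sex-dependent and growth hormone dependent genes 3 were higher and 2 lower, with 1 called without Model 2 or TA 3, 3 without TA 1 or TA 2 and 15 without Model 3. The female-biased Cyp2c12, which like Gstm3 and the other P450 genes named has close paralogs that can share its reads, was at 19.6, 56.6 and 25.6 CPM against 13.2, 16.4 and 14.2 CPM. Trib3, a target of the integrated stress response, stood at 3.15, 4.72 and 9.62 CPM in the model rats and 17.9, 21.9 and 31.97 CPM in the TA rats. It was 1 of 3 higher genes among 26 of the ER stress response, with Xbp1 at 98.3, 82.7 and 134 CPM against 278, 264 and 149 CPM, where the median of the list was 0.14 and turned to -0.29 with library totals. Of this list 1 was called without TA 1, 2 without Model 2 and 5 without Model 3.

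Among 27 NRF2 targets 7 were lower and 1 was higher, with 4 called without Model 1 and 3 without TA 2 or TA 3. Gstm3 was at 27.9, 55.3 and 32.6 CPM in the model rats and 9.35, 8.22 and 7.24 CPM in the TA rats, against 13.2, 11.2 and 12.3 CPM in the normal livers, and the quinone reductase Nqo1 at 28.3, 29.3 and 16.7 CPM against 5.85, 9.33 and 9.44 CPM. Nqo1 lay below its normal level of 16.1, 22.6 and 21.4 CPM in all 3 TA rats, and Gstm3 below its own. Gsta2 was the higher gene, at 5.56, 12.7 and 21.4 CPM in the model rats and 22.1, 35.4 and 41.2 CPM in the TA rats, but it was called in only 2 of the 6 fits that left out 1 rat and not without Model 1 (log2 fold change 0.96). Of 30 genes of glycolysis 10 were lower and 1 higher, with 7 called without TA 1, 5 without TA 2 and 4 without TA 3. Ldhb, a lactate dehydrogenase of other cells than hepatocytes, was at 48.9, 30.4 and 19.6 CPM against 8.26, 7.11 and 14.3 CPM and was the 1 lower gene of this list without Model 1. Klf9, a glucocorticoid target, was among 5 higher genes of 32 of fasting and gluconeogenesis, at 6.64, 10.2 and 15.8 CPM in the model rats and 43.4, 33.1 and 15.7 CPM in the TA rats. Of that list 3 were called without Model 1 or TA 2, 1 without TA 1 and 13 without Model 3.

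The clock genes differed gene by gene. Of 21 tested 2 were higher and 3 lower, and 3 were called without Model 1, 2 without TA 1 and 8 without Model 3. Dbp, an output of the clock with a steep daily rhythm in liver, stood at 54.5, 56.8 and 14.6 CPM in the model rats and 7.56, 6.83 and 11.1 CPM in the TA rats, but at 11.3, 6.46 and 142 CPM in the normal livers, whose own range covered both groups. Per3 was at 11.9, 12.9 and 6.85 CPM against 3.04, 2.96 and 3.01 CPM, and its normal livers were as far apart, at 2.72, 3.86 and 12.8 CPM. Usp2, a clock-driven protease, went the other way at 1.92, 3.36 and 4.54 CPM against 23.3, 8.12 and 4.96 CPM. The hour at which each liver was taken is not given in the sources used here.

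Of 21 tested genes that the study singled out, 7 were lower and 0 higher, with a median of -0.28, and without TA 1, TA 2 and TA 3 there were 3, 2 and 4. The study reported on these genes in rats of the same experiment, and picked some of them by its transcriptome, so they are no independent support. Ccl2 and Lpcat4, a lysophospholipid acyltransferase at 6.54, 5.30 and 5.46 CPM in the model rats and 2.03, 2.22 and 3.42 CPM in the TA rats, were lower with and without Model 1. The other lower genes, Col1a1, Col3a1, Acta2, Tgfb1 and Pla2g2a, were not called without it. The 14 genes of this list that were not called had log2 fold changes between -0.97 and 0.53. Among them Ptdss2 stood at 33.85, 33.56 and 30.25 CPM in the model rats and 47.55, 41.73 and 47.18 CPM in the TA rats. Cept1 was at 28.59, 80.72 and 95.13 CPM against 106.4, 85.59 and 102.3 CPM. Their log2 fold changes were 0.48 and 0.53, both above 0, and the groups overlapped for Cept1 but not for Ptdss2. Tgfb1, the growth factor that activates stellate cells, stood at 153, 43.9 and 38.2 CPM against 30.1, 19.9 and 21.6 CPM, with no overlap. Acta2, the actin of myofibroblasts, was at 161, 26.5 and 12.6 CPM in the model rats and 11.8, 5.54 and 17.5 CPM in the TA rats, with Model 3 within the TA range.

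The other lists are to be read beside the shares of all genes called, 2.11% higher and 10.2% lower. Without Model 1 these shares were 1.18% and 4.96%. Of 17 tested genes that mark the hepatocytes around the central vein, where Wnt signals act and where CCl4 is activated, 3 were higher and 1 was lower (median 0.93), with 3 higher and 0 lower without Model 1 (median 0.53), 2 called without Model 2 or TA 1, 1 without TA 3 and 8 without Model 3. Slc1a2, the glutamate carrier of this zone, stood at 0.640, 4.22 and 7.47 CPM in the model rats and 24.2, 30.3 and 13.3 CPM in the TA rats, with 12.96, 22.3 and 9.25 CPM in the normal livers. Oat, ornithine aminotransferase of the same zone, was at 62.2, 115 and 362 CPM against 551, 768 and 414 CPM, and the Wnt inhibitor Nkd1 was lower at 18.7, 14.9 and 16.3 CPM against 9.90, 8.22 and 6.75 CPM, though not called without Model 1 (log2 fold change -0.90). Of 27 genes of p53 targets and apoptosis 2 were higher and 1 was lower (median -0.24), with Cdkn1a, an inhibitor of the cell cycle, at 28.1, 59.5 and 34.8 CPM in the model rats and 133, 59.1 and 56.7 CPM in the TA rats, and the related Cdkn2b at 4.92, 8.44 and 2.39 CPM against 1.64, 1.48 and 1.06 CPM. The groups overlapped for Cdkn1a, and without Model 1 the 1 lower gene, Cdkn2b, was the only call of this list, with Cdkn1a at a log2 fold change of 0.82. Of 30 conjugation enzymes 2 were higher and 2 lower (median 0.63), of 21 iron genes 2 were lower (median 0.43) and of 32 genes of PI3K, Akt and mTOR signalling 2 were lower (median 0.05, or -0.37 with library totals and -0.06 with the upper quartile). Without Model 1 there was 1 lower conjugation enzyme (median 0.29), 0 iron genes were called (median 0.25) and 1 gene of PI3K, Akt and mTOR signalling was higher with 0 lower (median 0.14). Without Model 3 there were 10, 7 and 6 calls in these 3 lists, and without TA 2 there were 1, 1 and 0. Among 4 tested adipocyte markers Cidec was higher and Fabp4 lower, and of 4 red blood cell and 3 nerve markers 0 were called.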

How the data were processed

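Liver RNA was sequenced as polyA-selected paired-end libraries. The authors trimmed the reads, aligned them with STAR and counted them per gene with HTSeq-count, and deposited raw read counts, which are the unit used here. The methods and the processing notes name a human and a mouse build (mm9), while the symbols are those of rat, so the build of the counts is not settled and no coordinate rests on it. The authors' fold change and p-value columns were not used. Of the 16948 symbols 15472 (91.3%) were found in the RefSeq rat table (GRCr8), which also gave the promoters.

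Counts of 3 TA and 3 model libraries were filtered with filterByExpr, scaled by TMM and tested with edgeR 4.0.16 (R 4.3.3) by the quasi-likelihood test without covariates, with Benjamini-Hochberg adjustment over all genes tested. The normal livers stayed out of the fit, and their CPM were put on the same scale. The procedure was tested on simulated data. The gene lists and rules were chosen with earlier results of these data known. Named genes were the 12 higher and 12 lower genes described in the text, up to 2 called members per list and direction, and the genes the study singled out. Those of the study's genes that were not called are given by their range, and Ptdss2 and Cept1 also by their values. A gene that the rule names is not reported here. Cftr, Clec4g, Efemp2, Fdps, Hmgcs1, Hsd17b7, Idi1, Krt19, Loxl1, Mcm5, Mmp12, Msmo1, Sox9 and Timp1 fall outside this rule and were chosen after their values were seen. Some genes shown in the figures alone fall outside it too. The alternatives were DESeq2 1.42.0, limma 3.58.1 voom, other fits, scalings and filters, all 9 libraries, a replicate block and each library left out.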

Additional observations from a re-analysis of the deposited data

How the results depend on the processing

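The 1571 calls became 2447 with library totals in place of TMM, and between 792 (without Model 1) and 2792 (without Model 3) with each library left out. The count past an adjusted p of 0.05, 0 in the edgeR fit, was 526 with DESeq2, 169 with limma voom, and 0 to 1 with each library left out. The cause of these differences was not tested. The other fits, scalings and filters gave between 1550 and 2173 calls, and 0 genes past an adjusted p of 0.05 where edgeR was used. The lower share of the calls was 82.8% with edgeR and TMM, 64.9% with voom, 69.1% with the replicate block and 64.9% without Model 3. Fits with the replicate number as a block gave 1719 calls and 0 past an adjusted p of 0.05. The same number gave correlations of deviations of 0.218, -0.0355 and 0.00655, and not every sample correlated best with its own number. With 3 livers per group these correlations cannot decide whether the numbers pair the samples. None of the log2 fold changes of the genes named in the text changed sign under any alternative run, where Ptdss2 and Cept1 were not part of this check. The libraries held 13156735 to 14629664 counts, and genes with few counts, such as Dlk1, carry wide errors.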
